A study of Gallus gallus with 9 samples.

Results

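RNA of 3 peptide hormones and 4 hormone receptors was measured on arrays in preadipocytes from the abdominal fat of laying hens. Of these genes RLN3, AGTR1, AGTR2, AVPR2 and CCK lay far apart between arrays, VIP stood out on a single array and ADORA2B was detected on only 1 of 9. The peptides were relaxin 3 (RLN3), cholecystokinin (CCK) and vasoactive intestinal peptide (VIP). The receptors were those for angiotensin II (AGTR1 and AGTR2), for vasopressin or its avian form vasotocin (AVPR2) and for adenosine (ADORA2B), the only one of the 4 whose ligand is not a peptide. These 7 genes, of 13010 named on the array, were chosen by name with their values on the same 9 arrays already known, so their levels and differences are given as a description with no test. The platform annotation names 6 of them, and the probe set of ADORA2B was named from the study's own tables. Each gene was read from the probe set with the highest mean over the 9 arrays, and no level is compared between probe sets.

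Peptide hormones are cut from larger precursors and leave the cell through the secretory route. They bind receptors that cross the membrane and act inside the cell through G proteins, either on adenylyl cyclase, which makes cyclic AMP, or on phospholipase C, which releases calcium. In fat tissue angiotensin II is made and sensed locally, AGTR1 acting mainly through phospholipase C and AGTR2 often opposing it, while AVPR2, ADORA2B and the VIP receptors raise cyclic AMP in mammals.

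RNA of these cells was hybridized to 9 Affymetrix chicken arrays, with 3 titled DMIOA+20S, 3 titled DMIOA and 3 titled control. DMIOA is an adipogenic cocktail of insulin at 20 μg/mL, oleic acid at 300 μM, isobutylmethylxanthine at 0.5 mM, which blocks phosphodiesterases and also adenosine receptors, and the synthetic glucocorticoid dexamethasone at 500 nM. DMIOA+20S is the same cocktail with 5 μM of the oxysterol 20(S)-hydroxycholesterol, and control cells received neither. The methods state that cells came from 3 hens of 19 wk, were treated at confluence for 96 hr and gave biological replicates, but no source says which hen or dish each array came from, and p-values here cover only the spread between arrays. Values are log2 and were made by the authors with GCRMA, which corrects background by probe sequence, normalizes the arrays together and pulls dim probe sets to a common floor. The array medians lay between 2.11 and 2.14, and a probe set is called detected here at a log2 value of 4 or more. Values below it are near the floor and give no exact level, so ranges and gaps are differences of log2 values as listed, and no fold is taken over them. In RNA of a whole culture, fewer cells that express a gene and less RNA of it per cell cannot be told apart.

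The titles did not follow the similarity of the arrays. Over 38439 probe sets, DMIOA 1, control 1 and control 2 correlated with each other at 0.994 to 0.997 and with the other 6 arrays at only 0.970 to 0.976. DMIOA+20S 1, DMIOA+20S 2 and DMIOA 2 correlated with each other at 0.993 to 0.997, and the 3 arrays titled replicate 3 at 0.993 to 0.996. These sets of 3 are called A, B and C in that order, and they describe likeness of arrays only, so no array was given a new condition, and no mean or test was taken over a set. The line between B and C was not sharp. Correlations between them were 0.989 to 0.995, and DMIOA+20S 2 and DMIOA+20S 3 were each closest to the other. Set C holds exactly the arrays whose titles spell out the word replicate, where the other 6 abbreviate it, which may mark a batch. Whether each title names the treatment that its cells received was not tested. Every difference by title below compares arrays as titled, and its size and sign could differ if a title were wrong.

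RLN3, a peptide of the insulin and relaxin family best known as a neuropeptide of the mammalian brainstem, had the widest range of the 7 genes, 8.57 on the log2 scale as listed. It read 9.97, 9.15 and 8.17 on DMIOA+20S 1, 2 and 3, against 2.58, 9.54 and 8.34 on DMIOA 1, 2 and 3 and 1.40, 2.06 and 7.79 on control 1, 2 and 3. DMIOA 1, control 1 and control 2 were low and the other 6 arrays were high. The lowest of those 6 was 5.21 above the highest of the 3 low arrays, a gap wider than the spread within sets B, C or A (0.82, 0.56 and 1.18). All 3 arrays of set B also read above all 3 of set C, by at least 0.80.

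AGTR1, the receptor through which angiotensin II in mammals constricts vessels and drives aldosterone release, ranged over 6.44. It read 7.07, 8.18 and 8.32 on DMIOA+20S 1, 2 and 3, against 7.02 on DMIOA 2, 6.90 on DMIOA 3 and 2.34 on DMIOA 1, and 7.67 on control 3 against 1.88 and 2.31 on control 1 and 2. Again DMIOA 1, control 1 and control 2 stood at the floor, at least 4.56 below every other array. Unlike RLN3, AGTR1 did not separate set B from set C, which overlapped between 7.02 and 8.18. DMIOA+20S 3 was the highest of all 9 arrays.

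AGTR2, the second angiotensin II receptor, known in mammals mainly from fetal tissue, was read at 3 levels that followed the sets. It measured 7.32, 7.13 and 5.62 on DMIOA+20S 1, 2 and 3, against 2.96, 6.95 and 5.35 on DMIOA 1, 2 and 3 and 3.03, 2.58 and 5.68 on control 1, 2 and 3. Set B was highest, set C lay at least 1.27 below it, and set A lay at least 2.32 below set C. Having set B at least 1 above all other arrays was shared by 17 probe sets (0.0442%). The spread within a set was at most 0.45, and within set C the value of control 3 was as high as that of DMIOA+20S 3. A second AGTR2 probe set stayed at the floor on all arrays (1.51 to 1.80), so the range of 4.74 rests on 1 of its 2 probe sets.

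AVPR2, which in the mammalian kidney drives water uptake through cyclic AMP, had the same order of sets. Its values were 6.85, 7.21 and 5.80 on DMIOA+20S 1, 2 and 3, against 1.74, 6.53 and 4.46 on DMIOA 1, 2 and 3 and 1.56, 1.06 and 5.23 on control 1, 2 and 3. The arrays of set A were again at the floor, at least 2.72 below the rest, and set B was above set C by at least 0.73. The range over the 9 arrays was 6.15, and the spread within set C was 1.34, the widest within any set for this gene.

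**Figure D1:**
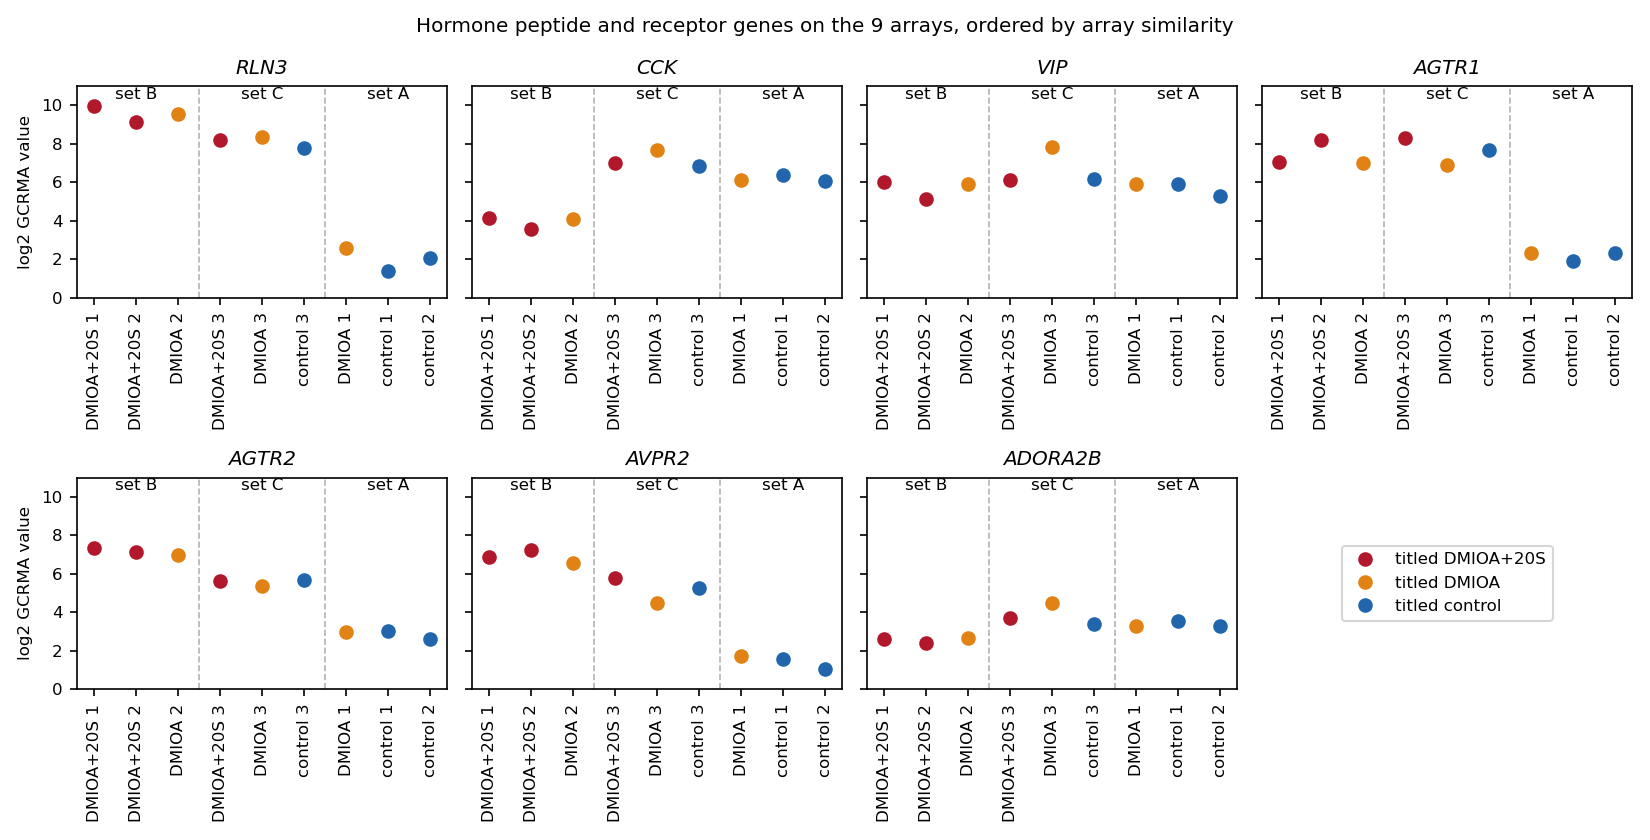
Log2 GCRMA value (vertical axis) of each of the 7 genes on each of the 9 arrays (horizontal axis, by title), 1 point per array, with the arrays ordered by set B, C and A and coloured by title. RLN3, AGTR1, AGTR2 and AVPR2 are low on the 3 arrays of set A, CCK is low on those of set B, and VIP is highest on DMIOA 3.

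RLN3, AGTR1, AGTR2 and AVPR2 thus shared 1 pattern, with every array of set A at least 1 below every array of sets B and C. This pattern was met by 460 of all 38439 probe sets (1.2%), and the opposite one, set A at least 1 above, by 1.82%. Set B also lay above set C without overlap for RLN3, AGTR2 and AVPR2, which 6.73% of all probe sets did, and 0.385% had both features. Across the 9 arrays AGTR2 and AVPR2 correlated at 0.99, RLN3 with either at 0.97, and AGTR1 at 0.95 with RLN3, 0.94 with AVPR2 and 0.90 with AGTR2. All probe sets share the same 9 arrays, which fall into the sets described, so these values describe the common step between set A and the rest.

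CCK, a gut and brain peptide that empties the gall bladder and signals satiety, followed a different order. It read 4.14, 3.59 and 7.02 on DMIOA+20S 1, 2 and 3, against 6.09, 4.07 and 7.67 on DMIOA 1, 2 and 3 and 6.38, 6.05 and 6.82 on control 1, 2 and 3. The 3 arrays of set B were lowest, at least 1.91 below every other array, and set C lay above set A by at least 0.44. A position of set B at least 1 below all others was shared by 26 probe sets (0.0676%). The range was 4.09, and a second CCK probe set stayed between 2.01 and 2.47 on all arrays.

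VIP, which relaxes smooth muscle and raises cyclic AMP, was detected on all 9 arrays. Its values were 6.0, 5.14 and 6.13 on DMIOA+20S 1, 2 and 3, against 5.93, 5.93 and 7.84 on DMIOA 1, 2 and 3 and 5.92, 5.29 and 6.17 on control 1, 2 and 3. A single array, DMIOA 3, stood 1.67 above the next one. Set C lay above set B by only 0.13, and without DMIOA 3 the range of 2.69 fell to 1.02.

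ADORA2B, the adenosine receptor that needs the highest adenosine levels, was dim, reaching 4 only on DMIOA 3. It read 2.61, 2.41 and 3.70 on DMIOA+20S 1, 2 and 3, against 3.30, 2.66 and 4.50 on DMIOA 1, 2 and 3 and 3.55, 3.30 and 3.39 on control 1, 2 and 3. As listed, set B was lowest without overlap, by 0.64, though both sides of that gap lay below 4, and sets C and A overlapped. Its range of 2.09 was the narrowest of the 7 genes and fell to 1.29 without DMIOA 3. Set C lay above set B without overlap for ADORA2B, CCK and VIP, as it did for 7.8% of all probe sets, and across the arrays ADORA2B correlated at 0.95 with CCK and at 0.78 with VIP.

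A range of at least 2 over the 9 arrays was found for all 7 genes and for 4.71% of all probe sets. At a range of at least 4 the numbers were 5 genes and 0.682%, and at least 6 they were 3 genes (RLN3, AGTR1 and AVPR2) and 0.133%. Most probe sets of the array are dim. Among the 12169 at 4 or more on at least 3 arrays, to which 6 of the 7 genes belong (ADORA2B being the exception), ranges of at least 2, 4 and 6 were found for 12.7%, 2.13% and 0.419%. The shares given for steps between sets, above and below, are over all probe sets, most of them dim. They were not counted among the 12169, where they could be larger. Since the genes were chosen with these values known, all these shares give the scale of the array and nothing is read from them.

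By title, the comparison of DMIOA with control asks what the cocktail changed. The arrays titled DMIOA and control overlapped for all 7 genes, whereas 2.72% of all probe sets were higher and 2.53% lower without overlap. The log2 difference was 3.07 for RLN3 (standard error 2.1), 1.47 for AGTR1 (1.71), 1.32 for AGTR2 (1.12) and 1.63 for AVPR2 (1.37). It was -0.47 for CCK (1.05), 0.78 for VIP (0.53) and 0.07 for ADORA2B (0.48). RLN3 averaged 6.82 ± 3.72 on the arrays titled DMIOA and 3.75 ± 3.51 on those titled control (SD, n = 3 each), so the spread within a title was as wide as the difference. DMIOA 1 at 2.58 and control 3 at 7.79 each lay away from the other arrays of their title. Without DMIOA 1 the difference was 5.19, and without DMIOA 2 it was 1.71. AGTR1 averaged 5.42 ± 2.67 and 3.95 ± 3.22 on the arrays titled DMIOA and control, and its difference was 0.43 without control 1 and 3.32 without control 3. Without DMIOA 2 the differences of AGTR2 and AVPR2 were 0.39 and 0.48 and that of CCK was 0.47. Without DMIOA 3 those of VIP and ADORA2B were 0.14 and -0.43. Over all leave-outs AGTR2 ranged from 0.39 to 2.39, AVPR2 from 0.48 to 2.93 and CCK from -1.33 to 0.47. VIP ranged from 0.14 to 1.09 and ADORA2B from -0.43 to 0.49.

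The comparison of DMIOA+20S with DMIOA asks what the oxysterol added. Only AGTR1 of the 7 genes had its titles apart, with 7.07 to 8.32 on the DMIOA+20S arrays and 2.34 to 7.02 on the DMIOA arrays, against 3.81% of all probe sets higher and 3.1% lower without overlap. The closest arrays, DMIOA+20S 1 at 7.07 and DMIOA 2 at 7.02, lay next to each other. The log2 difference of AGTR1 was 2.44 (standard error 1.71), and it was 0.90 without DMIOA 1 and 3.24 without DMIOA 2. RLN3 differed by 2.27 (2.1), AGTR2 by 1.60 (1.12) and AVPR2 by 2.38 (1.37). Without DMIOA 1 these were 0.16, 0.53 and 1.12, and without DMIOA 2 they were 3.63, 2.53 and 3.52. CCK differed by -1.03 (1.05), VIP by -0.81 (0.53) and ADORA2B by -0.58 (0.48). CCK averaged 4.91 ± 1.84 on the arrays titled DMIOA+20S and 5.95 ± 1.81 on those titled DMIOA (SD, n = 3 each). Its difference was -2.08 without DMIOA+20S 3 and -0.17 without DMIOA 3, and without DMIOA 3 those of VIP and ADORA2B were -0.18 and -0.07. Without DMIOA 2 VIP and ADORA2B differed by -1.13 and -0.99.

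Between DMIOA+20S and control, RLN3 and AVPR2 did not overlap, against 6.9% of all probe sets higher and 6.56% lower. RLN3 averaged 9.10 ± 0.90 on the arrays titled DMIOA+20S and 3.75 ± 3.51 on those titled control, and AVPR2 6.62 ± 0.73 and 2.62 ± 2.27 (SD, n = 3 each). The log2 differences were 5.35 for RLN3 (standard error 2.1) and 4.0 for AVPR2 (1.37). AGTR1 differed by 3.90 (1.71) and AGTR2 by 2.92 (1.12), with control 3 among the DMIOA+20S arrays for both. CCK differed by -1.50 (1.05), ADORA2B by -0.50 (0.48) and VIP by -0.03 (0.53). Of the 3 comparisons this one had the largest difference in size for RLN3, AGTR1, AGTR2, AVPR2 and CCK, but not for VIP or ADORA2B. The titled means of RLN3, AGTR1, AGTR2 and AVPR2 all ran DMIOA+20S over DMIOA over control, but DMIOA and control overlapped for each of them, and DMIOA+20S and DMIOA for all but AGTR1. The 3 comparisons share arrays, so their values are not independent of each other.

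**Figure D2:**
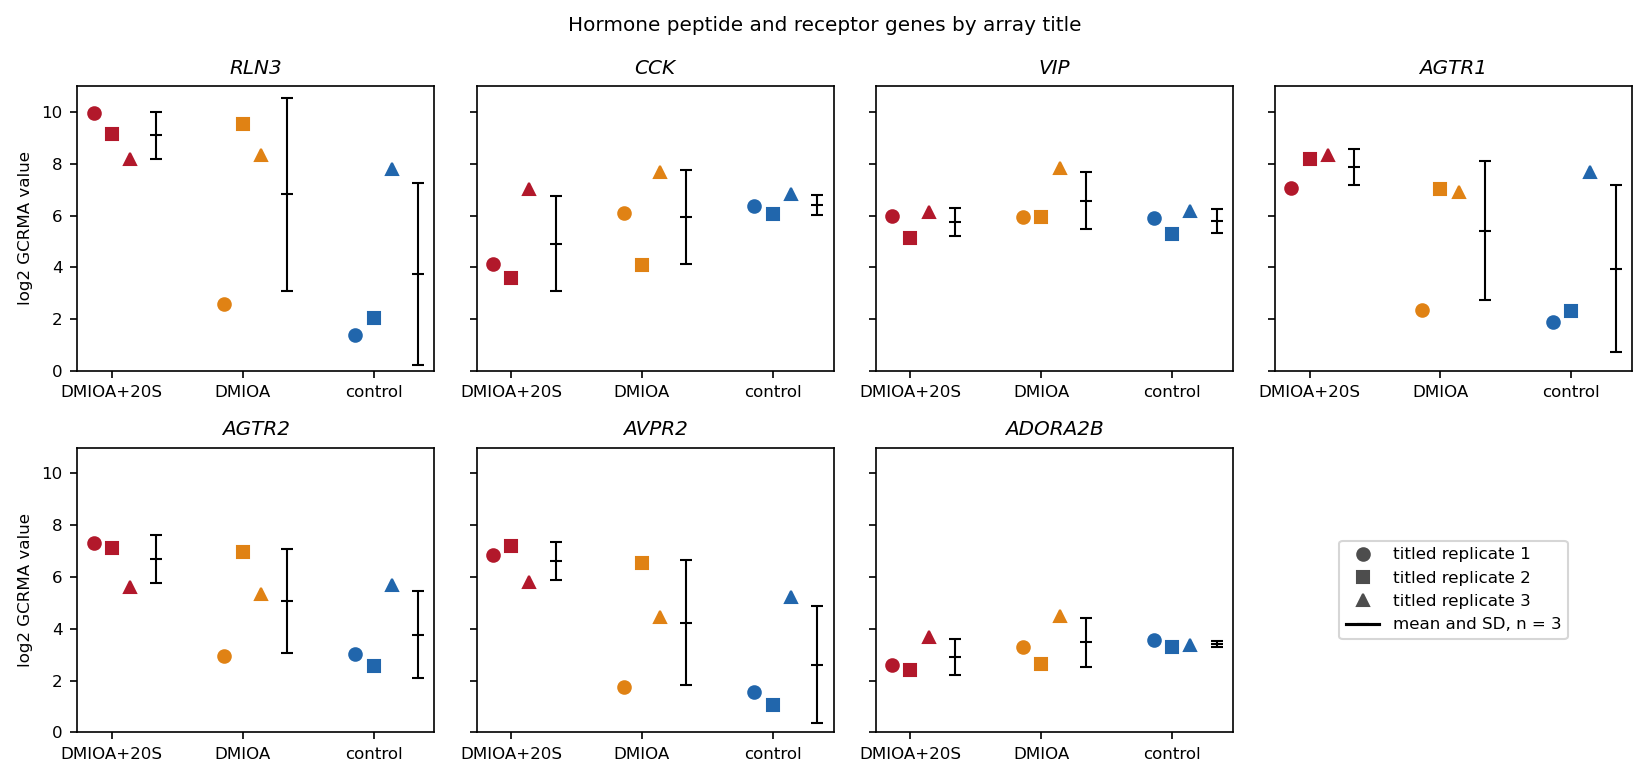
Log2 GCRMA value (vertical axis) of each gene by array title (horizontal axis), 1 point per array with the shape giving the titled replicate number, beside the mean and SD of the 3 arrays. The SD of RLN3 is 3.72 for DMIOA and 3.51 for control against 0.90 for DMIOA+20S, since DMIOA 1 and control 3 lie away from the others of their title.

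**Figure D3:**
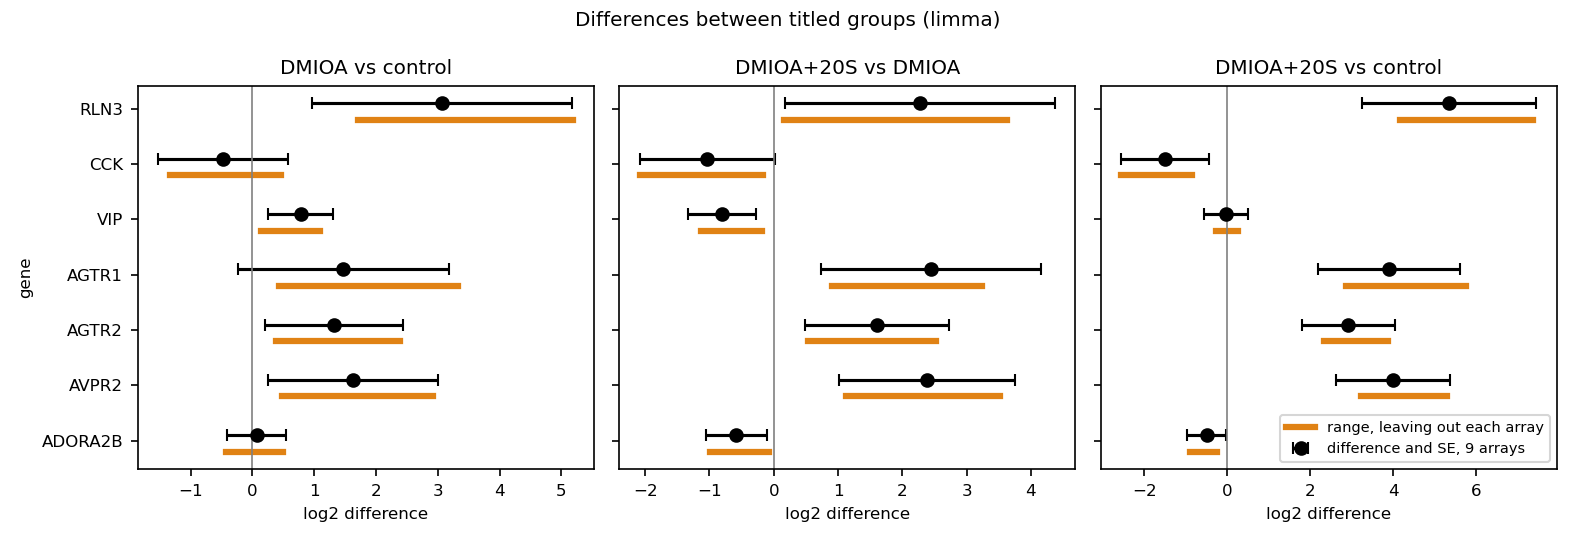
Log2 difference (horizontal axis) of each gene (vertical axis) in the 3 comparisons by title, with black points and bars for the limma estimate over 9 arrays and its standard error, and orange bars for the lowest to highest estimate when each array was left out in turn. RLN3 in DMIOA+20S against DMIOA is 2.27, with estimates from 0.16 to 3.63.

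Over all 38439 probe sets limma called 0 in DMIOA against control (0.0%) and 0 in DMIOA+20S against DMIOA (0.0%), at an adjusted p under 0.05 (Benjamini-Hochberg) and a 2-fold difference. In DMIOA+20S against control it called 0 higher (0.0%) and 2 lower (0.0052%), TNPO1 and RPS6KA6, which are outside the hormone lists and are named here from their calls. Leaving out any array brought these calls to 0. TNPO1 read 2.61 to 2.76 on the DMIOA+20S arrays and 3.90 to 4.18 on the control arrays, below or near the detection limit of 4. RPS6KA6 was above that limit, with 4.53 to 4.62 on the DMIOA+20S arrays and 5.66 to 5.81 on the control arrays. Before adjustment 905, 1099 and 3880 of the 38439 probe sets passed a limma p of 0.05 in these comparisons, and 2, 25 and 593 with a 2-fold minimum. With no difference present, a share of 0.05 would pass on average. The counts for DMIOA against control and DMIOA+20S against DMIOA were below that share. The test named in the study's methods called 0 in each comparison after adjustment.

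Within the arrays whose titles are worded alike, replicates 1 and 2, the difference was wider for the genes low in set A. RLN3 differed between DMIOA+20S and control by 7.83 on replicates 1 and 2 and by 0.38 on replicate 3. For AGTR1 the values were 5.53 and 0.66, for AVPR2 5.72 and 0.57 and for AGTR2 4.42 and -0.07. The step between DMIOA+20S and control in these genes was one between arrays of replicates 1 and 2, and on replicate 3 it was at most 0.66. Control 1 and 2 belong to set A and all of replicate 3 to set C, so this split restates the sets. Between DMIOA and control RLN3 differed by 4.33 on replicates 1 and 2 and by 0.56 on replicate 3, while AGTR1 (2.59 and -0.77), AVPR2 (2.82 and -0.77) and AGTR2 (2.15 and -0.33) had opposite signs. Of these 4 genes AGTR1 and AVPR2 had a difference over 1 between DMIOA+20S and DMIOA on replicate 3 too, at 1.43 and 1.34, against 2.94 and 2.90 on replicates 1 and 2. RLN3 differed by -0.18 on replicate 3 and 3.50 on replicates 1 and 2 in that comparison, and AGTR2 by 0.26 and 2.27. VIP differed by 1.67 between DMIOA 3 and control 3 and by 0.33 on replicates 1 and 2. Replicate 3 holds 1 array per title, so it gives a value with no error, and the part of the title wording in the differences was not tested.

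The partners of these genes were read from lists of the same hormone systems. Of 14 measured genes of the angiotensin system, 7 were detected on at least 3 arrays and 7 were below 4 on all. ACE, the enzyme that makes angiotensin II, read 4.69, 4.64 and 3.38 on DMIOA+20S 1, 2 and 3, against 1.89, 5.32 and 3.35 on DMIOA 1, 2 and 3 and 2.27, 2.06 and 3.38 on control 1, 2 and 3. As listed, its values had the order of AGTR2, with set B highest, set C between and set A lowest, without overlap. Unlike AGTR2, which was detected in set C too, ACE reached 4 only in set B. Its order between sets C and A thus rests on values near the floor. PRCP, a carboxypeptidase that can remove the end residue of angiotensin II, read 9.39 to 10.01 on the 6 arrays of sets B and C and 6.94 to 7.22 on those of set A. AGTRAP, which binds AGTR1 and draws it into the cell, was highest in set C (7.41 to 7.59), next in set B (6.75 to 7.07) and lowest in set A (5.64 to 5.97). NLN, an oligopeptidase that also cuts angiotensins, ran the other way, with 8.67 to 9.23 in sets B and C and 9.94 to 10.04 in set A. AGT, the precursor of angiotensin II, stayed between 1.49 and 1.97, and MAS1, the receptor for angiotensin fragments, between 1.39 and 1.72.

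AVP, whose product in birds is vasotocin, was near the limit of detection, with 4.23, 3.96 and 3.89 on DMIOA+20S 1, 2 and 3, against 2.88, 4.36 and 4.14 on DMIOA 1, 2 and 3 and 2.33, 2.16 and 3.86 on control 1, 2 and 3. As for AVPR2, the 3 arrays of set A were the lowest. The other receptors of the hormone, AVPR1A and AVPR1B, and the oxytocin receptor OXTR were below 4 on all arrays, with highest values of 1.70, 1.79 and 2.14.

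Among adenosine genes, ENTPD1, an ectoenzyme that breaks down extracellular ATP, read 4.84 to 5.42 on sets B and C and 2.60 to 3.26 on set A. ADORA2B itself did not separate set A from the rest. ADORA1, ADORA2A and ADORA3 and the AMP-cleaving NT5E were below 4 on all arrays. ADK, which removes adenosine inside the cell, stayed between 7.0 and 7.50, and ADA, which deaminates it, between 5.30 and 6.91.

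The measured receptors for RLN3 and CCK were at the floor. RXFP3, the receptor of relaxin 3 in mammals, read 1.03 to 1.49, and RXFP1 and RXFP2 at most 2.16 and 1.43. CCKAR read 1.68 to 2.03 and CCKBR 0.76 to 1.25. VIP had 1 detected receptor. VIPR2 read 5.71, 5.27 and 3.91 on DMIOA+20S 1, 2 and 3, against 6.63, 5.89 and 3.33 on DMIOA 1, 2 and 3 and 6.46, 5.94 and 4.15 on control 1, 2 and 3. Its 3 lowest arrays were those of set C, at least 1 below the rest as for 0.0624% of all probe sets. On the same arrays VIP was highest, but by only 0.13 over set B. VIPR1 (2.06 to 2.54) and the related peptide and receptor ADCYAP1 (1.04 to 1.47) and ADCYAP1R1 (1.59 to 2.22) were not detected.

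Downstream, among 27 measured G proteins, cyclases and regulators, 5 had a range of at least 2 and were detected on at least 3 arrays. PLCB1, a phospholipase C driven by receptors such as AGTR1, read 7.15 to 7.47 on sets B and C and 4.16 to 5.09 on set A. RGS2, which shortens such signals, read 4.78 to 5.55 on sets B and C and 2.86 to 3.18 on set A. ADCY2, an adenylyl cyclase, ran the other way, with 1.52 to 2.02 on sets B and C and 4.49 to 5.38 on set A. RGS3 was also highest in set A, with 2.17 to 2.45 in set B, 3.12 to 3.45 in set C and 4.60 to 5.76 in set A, and RGS1 was lowest in set B (2.33 to 2.51).

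**Figure D4:**
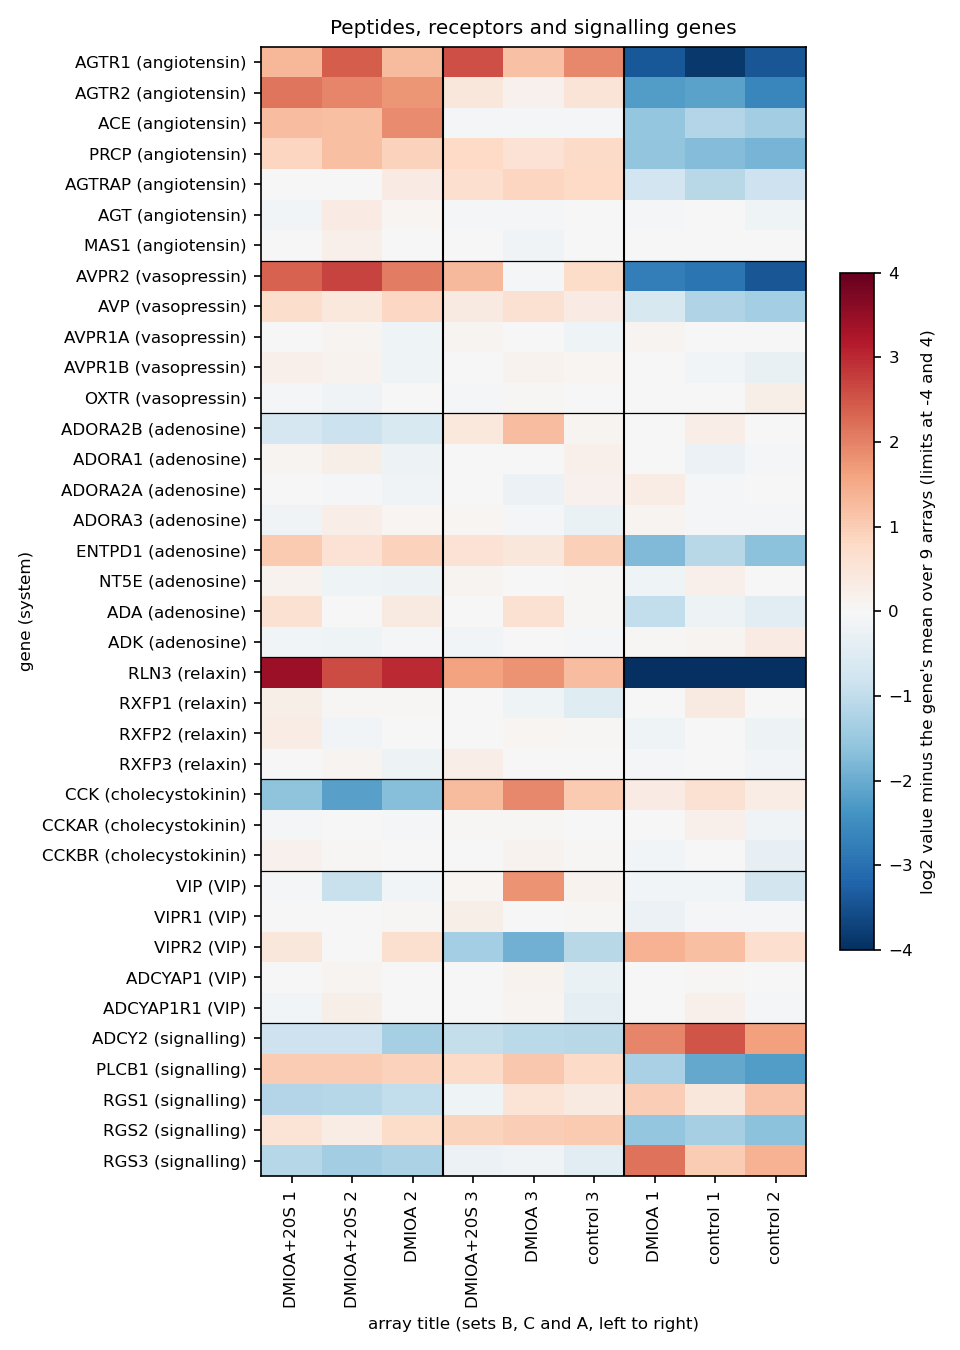
Difference from the gene's own mean over the 9 arrays (log2, colour, cut off at -4 and 4) for the 7 genes, their ligands, receptors and enzymes and 5 signalling genes (vertical axis) on the 9 arrays (horizontal axis) in sets B, C and A. ACE, PRCP, ENTPD1, PLCB1 and RGS2 are below their mean on the 3 arrays of set A, as are RLN3, AGTR1, AGTR2 and AVPR2, whereas ADCY2 and RGS3 are above it.

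By title, limma called 0 of the 156 other genes of the peptide, receptor, signalling and processing lists in any of the 3 comparisons. Their median log2 differences were 0.01 in DMIOA against control, 0.04 in DMIOA+20S against DMIOA and 0.08 in DMIOA+20S against control, beside 0.0035, 0.006 and 0.014 over all probe sets. Of the 156, 36 were detected on at least 3 arrays and 115 were below 4 on all. The step with set A at least 1 below the rest was present in 8 (5.13%) and the opposite step in 3 (1.92%), against 1.2% and 1.82% of all probe sets. The lists were chosen with earlier results known and hold 1 probe set per gene, the one with the highest mean. The shares are thus of unlike sets, and nothing is read from them.

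Markers of the cultured cells and of other cell types also differed between the sets. Of 9 preadipocyte and adipocyte genes, PPARG (7.95 to 9.30), FABP4 and LPL were detected on all arrays. PDGFRA (at most 2.15), DLK1 (at most 1.27), CEBPA, ADIPOQ and PLIN1 were below 4 on all. The mean level of this list was 5.15 to 5.42 in set B, 4.89 to 5.13 in set C and 4.0 to 4.13 in set A, and FABP4 and CIDEC, a lipid droplet protein, shared the step of RLN3. The other detected members did not, with PPARG at 8.24 to 9.0 in set B, 7.95 to 8.61 in set C and 8.93 to 9.30 in set A, and LPL at 4.96 to 6.51, 4.82 to 5.97 and 4.84 to 5.54. Of 7 leukocyte genes 3 were below 4 on all arrays and 2 were detected on at least 3 arrays. The list averaged 2.54 to 2.60 in set B, 2.42 to 2.80 in set C and 3.52 to 3.59 in set A, where PTPRC read 5.12 to 5.37. Only 1 of the 7 had set A at least 1 above all other arrays. Of 5 measured smooth muscle genes 1 was below 4 on all arrays, with list means of 5.47 to 5.70, 5.15 to 5.35 and 6.35 to 6.54 in sets B, C and A. ACTA2 (8.18 to 8.38) and TAGLN were highest in set A, MYH11 was lowest there (5.12 to 5.97 in set B, 4.78 to 4.99 in set C and 3.77 to 4.49 in set A), and PDGFRB stayed between 6.64 and 7.13. Of 6 endothelial genes 4 were below 4 on all arrays, with list means of 2.48 to 2.64, 2.65 to 2.89 and 3.09 to 3.14, and CDH5 read 6.74 to 7.14 in set A. DMIOA 3 was looked at here because VIP was highest on it. There PECAM1 read 3.82, below the detection limit, CDH5 read 6.15 and the endothelial list averaged 2.89. That list averaged 2.66 on DMIOA+20S 3 and 2.65 on control 3. VIP read 5.29 to 5.93 in set A, and a link between VIP and these markers was not tested. Of 9 neuronal genes 8 were below 4 on all arrays, including SNAP25, SYP and CHGA, with list means of 2.51 to 2.61, 2.46 to 2.51 and 2.81 to 2.84, and the only detected member, UCHL1, read 8.50 to 8.58, 8.28 to 8.61 and 11.83 to 11.97. Of 2 measured mesothelial genes MSLN was at the floor and the other was detected on at least 3 arrays. The list means were 3.69 to 3.83, 3.05 to 3.75 and 3.76 to 3.97 in sets B, C and A. The part of these cell types in the levels of the hormone genes was not tested, and it cannot be told apart from the sets.

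The genes most like each of the 7 over the 9 arrays were sought among 841 named genes with a range of at least 2. For RLN3 they were FABP5, a fatty acid carrier (r = 0.999), COQ8A (0.996) and TFPI2, a protease inhibitor (0.995). For AGTR1 they were LHFPL5 (0.995), FKBP5, a co-chaperone of steroid receptors (0.993), and NAMPTP1 (0.992). For AGTR2 they were the metalloproteinase TLL1 (0.995), the natriuretic peptide receptor NPR3 (0.994) and NT5DC2 (0.994), and TLL1 was also nearest to AVPR2 (0.995), followed by GFPT2 (0.994) and NCALD (0.992). Values this high were common for these 4 genes, with 138, 127, 69 and 78 of the 841 candidates above 0.95 for RLN3, AGTR1, AGTR2 and AVPR2. For CCK only 4 candidates passed 0.95, led by the kinase TEC (0.984), VNN2 (0.983) and TPPP (0.966). ADORA2B had VNN2 (0.978), TEC (0.944) and K123 (0.922), and VIP had CORO2A (0.890), the transferrin receptor TFRC (0.858) and HEY1 (0.847). These are correlations over the same 9 arrays in 3 sets, given as a description.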

How the data were processed

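RNA of 9 samples of hen preadipocytes was measured on Affymetrix chicken arrays. The deposited values are log2 and were made by the authors with GCRMA in FlexArray, whose version is not given in the sources used here. GCRMA shrinks differences between dim probe sets, and no further normalization was applied. Of the probe sets, 96 controls were left out and 38439 kept. The platform annotation, which can be old, gives 1 symbol to 27168, several to 177 and none to 11094. The probe set with the highest mean stands for a gene. No column belonged to a sample that is not listed. Titles gave the groups.

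All 9 arrays were fitted by title with limma 3.58.1 (lmFit, eBayes) in R 4.3.3, with Benjamini-Hochberg adjustment over 38439 probe sets and calls at a difference of at least 1 on the log2 scale with an adjusted p below 0.05. The fit was tested on simulated data with known changes and independent noise on each array. Those data hold no sets like A, B and C, so they cannot show how the fit behaves with such sets. The number of arrays, 3 per group, limits the precision. Tables and plots were made in Python 3.11.15 with numpy 2.4.6, pandas 2.3.3 and matplotlib 3.10.9.

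The 7 genes and all lists were chosen with earlier results of these data known. Beside the 7, the genes named were up to 5 per list with the widest range among those at 4 or more on at least 3 arrays, the ligands and receptors of the 7, the markers, and the 3 genes most correlated with each of the 7. NT5E, CALCRL, PCSK1, PCSK2, NPY, EDNRB, TNPO1 and RPS6KA6 fall outside this and were named with their values seen. Alternatives were only the groups compared, only replicates 1 and 2, a block for the replicate number or the title wording, the methods' t-test, eBayes with trend and robust, array weights, quantile normalization, centring on the median, a filter on low values, the mean over a gene's probe sets and leaving out each array. Sequences and genome positions of the genes are not used here.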

Additional observations from a re-analysis of the deposited data

Results flagged for a closer look

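For 5 differences by title, replicate 3 ran opposite to replicates 1 and 2, whose arrays did not overlap between the titles. The other differences of the hormone genes kept their sign on replicate 3 or overlapped on replicates 1 and 2. How many of all probe sets ran opposite in this way was not counted, so the number has no scale. AGTR1 differed by -0.77 between DMIOA 3 and control 3, against 2.59 between DMIOA and control on replicates 1 and 2. AVPR2 differed by -0.77 and 2.82 in the same comparison. Between DMIOA+20S and control, AGTR2 differed by -0.07 on replicate 3 and 4.42 on replicates 1 and 2, a value near 0 for replicate 3. CCK differed by 0.20 and -2.35 in that comparison, and ADORA2B by 0.32 and -0.91. All arrays of replicate 3 belong to set C, and those of replicates 1 and 2 to sets A and B. The contrast between the replicates thus cannot be told apart from the sets. Replicate 3 is 1 array per title, and the difference between the replicates was not tested. No sample could be marked as an outlier within a title, since groups of 3 arrays are too small for that.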

How the results depend on the processing

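The count of probe sets called in DMIOA+20S against control was 2. It was 0 with the replicate block, with replicates 1 and 2 only, with the title wording as a block, with only the groups compared, with the methods' t-test, with eBayes trend and robust and with the filter on low values, and 1 with quantile normalization. It was 2 with array weights and with centring on the median, and 0 to 0 when each array was left out. The other comparisons had 0 calls in all alternatives, so of 57 counts 54 were 0 and the highest was 2. Before adjustment the methods' t-test with a 2-fold minimum gave 221 probe sets in DMIOA+20S against control, 5 in DMIOA+20S against DMIOA and 1 in DMIOA against control. Deviations of same-numbered arrays from their group means correlated at 0.702, -0.557 and 0.704 in DMIOA against control. Differently numbered arrays gave -0.835 to 0.749 in that comparison. Same-numbered arrays gave -0.297, 0.001 and 0.196 in DMIOA+20S against DMIOA and 0.045, 0.136 and 0.084 in DMIOA+20S against control. Deviations within a title sum to 0, so these values cannot decide whether same-numbered arrays are paired.

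Of 336 alternative differences of the 7 genes, 333 moved by less than the spread between arrays of a title, 3 moved further and 7 changed sign. Those that moved further were AGTR2 in DMIOA+20S against control, 4.42 on replicates 1 and 2 and 1.49 as the mean of its probe sets, and AVPR2, 5.72 on replicates 1 and 2. The sign changed for VIP in DMIOA+20S against control (4 alternatives, from -0.28 to 0.27), for ADORA2B in DMIOA against control (2 alternatives, from -0.45 to 0.49) and for CCK in DMIOA against control, 0.47 without DMIOA 2. These counts do not measure stability. Blocks, fits of only the groups compared and leave-outs from the uncompared group return the same difference by design. The SD within a title reached 3.72, for RLN3 on DMIOA. A fall of RLN3 from 2.27 to 0.16 in DMIOA+20S against DMIOA thus counted as less than the spread. Of 84 alternative ranges over the arrays 80 moved by less than that spread. The mean over probe sets gave 2.40 for AGTR2 and 2.05 for CCK. Alternatives for the closest grouping were chosen after seeing the data. By it 2 arrays were closest to an array of another set, 1 with the filter on low values and 0 to 3 when each array was left out. Dim genes, among them ADORA2B, are limited by the floor of the array.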

Other observations

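Other peptide systems of the lists also differed between the sets. ADM, the vasodilator peptide adrenomedullin, read 12.70, 12.68 and 12.34 on DMIOA+20S 1, 2 and 3, against 10.64, 12.63 and 12.35 on DMIOA 1, 2 and 3 and 10.38, 10.24 and 12.33 on control 1, 2 and 3, with set A lowest and set B above set C. RAMP3, which helps to form its receptor, ran the other way, with 1.88 to 2.92 in set B, 3.40 to 3.52 in set C and 4.0 to 4.24 in set A, while CALCRL, the receptor partner of RAMP3, stayed between 1.09 and 1.65. GCG, the glucagon precursor, was also highest in set A, with 3.94 to 4.82 in set B, 4.98 to 5.27 in set C and 6.21 to 6.55 in set A. EDNRA, an endothelin receptor, read 11.29 to 11.54 in set B, 10.95 to 11.13 in set C and 9.97 to 10.05 in set A. NPY, an appetite peptide, and EDNRB, another endothelin receptor, were named after their values were seen. NPY read 3.24 to 4.47 in sets B and C and 1.35 to 2.02 in set A, and EDNRB 3.50 to 5.09 and 2.02 to 2.29, with its highest value on DMIOA 3. Of 22 other peptide hormones 21 were below 4 on all arrays, as were 31 of 33 other peptide receptors.

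Among the genes that cut and store peptides, 7 of 14 were detected on at least 3 arrays. PCSK5, a proprotein convertase, read 8.11 to 8.61 in sets B and C and 10.26 to 10.40 in set A, and PCSK6 6.81 to 8.18 and 8.69 to 9.12. PAM, which amidates the end of peptides such as CCK and VIP, read 9.12 to 9.88 in sets B and C and 10.44 to 10.61 in set A. SCG3, a granule protein, read 6.26 to 6.87 in sets B and C and 5.12 to 5.44 in set A. PCSK1 and PCSK2, the convertases of endocrine cells, were below 4 on all arrays, with highest values of 2.28 and 1.63.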
